A study of Mus musculus with 8 samples.

Results

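The comparison concerns the left ventricle of the mouse heart in the first days after birth. Post-partum animals were taken 1.5 days after delivery and were set against non-pregnant females in diestrus, a phase of the estrous cycle, which the series design names as the reference. All were C57BL/6 females of 3 to 4 months, with no allele or agent that differed between groups. Whether the post-partum females were nursing is not given in the sources used here. The members were chosen by their titles: 2 of the 8 arrays carry the post-partum label (replicates 2 and 4) and 2 the diestrus label (replicates 2 and 3), so 4 of 8 arrays enter the comparison, over all annotated genes. The other 4 arrays, 2 from day 12 and 2 from day 19 of pregnancy, entered the estimate of the spread and served for comparison. Each array received RNA from 1 of the 3 pieces into which a left ventricle had been cut, and the labels do not tie arrays to animals beyond the replicate number, so a p-value here speaks for the spread between arrays, which may be technical.

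Values are log2 expression values per gene, on which a difference of 1 is a doubling, and a value of 1 gene is not compared with that of another. Of 22180 genes measured, 13872 reached a mean of 5.19 in at least 1 group and were tested with limma, with p-values adjusted over all of them by the Benjamini-Hochberg method. Array medians lay between 5.14 and 5.28, and the 4 arrays correlated at 0.980 to 0.990 across genes, which are not independent replicates. The median standard error of a post-partum minus diestrus difference was 0.17. The label of the tissue was checked on its markers: Myh6, the main adult ventricular myosin heavy chain of the mouse, stood at 12.60 and 12.50 post-partum and at 12.53 and 12.54 in diestrus. The atrial light chain Myl7 stood at 4.63 and 4.81 on the post-partum arrays, near the low end of the scale, and at 5.12 and 8.24 on the diestrus arrays.

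The heart enlarges during pregnancy as blood volume and cardiac output rise, and it returns towards its earlier size in the weeks after delivery. The heart muscle cells of an adult mouse rarely divide, while fibroblasts, endothelial cells and macrophages can. Fibroblasts make the interstitial matrix of collagens, matricellular glycoproteins and proteoglycans that carries the load between muscle cells, and its turnover is set by proteases and their inhibitors.

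After correction over all genes, 0 of 13872 genes (0%) differed between post-partum and diestrus (limma, smallest adjusted p = 0.445). At an unadjusted p under 0.05, 918 genes did (6.62%), 469 higher (3.38%) and 449 lower (3.24%), and 161 did at an unadjusted p under 0.01 (1.16%). The differences below are therefore given as values with their standard errors and unadjusted p, and no single gene among them passed. Over all genes the median difference was -0.0036, and 20 genes stood more than 1 log2 unit higher and 34 more than 1 lower. Groups of 2 arrays often do not overlap: both post-partum arrays lay above both diestrus arrays in 21.1% of genes and below both in 21.7%.

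**Figure D1:**
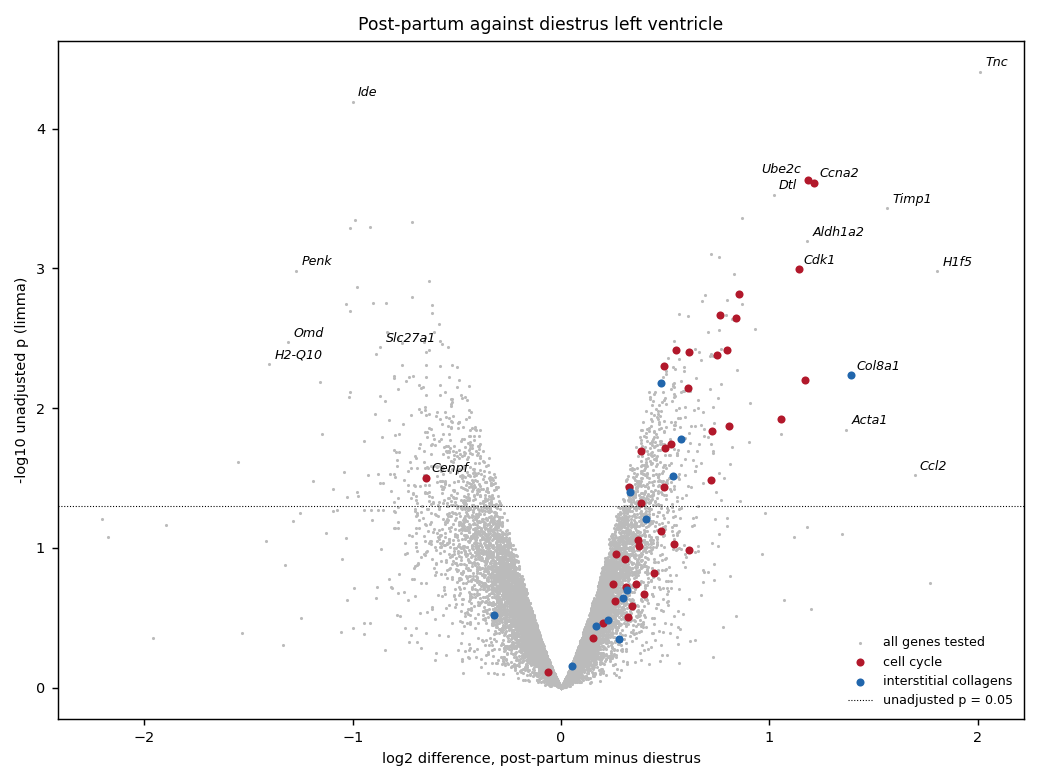
Each point is a gene: the x axis gives the log2 difference, post-partum minus diestrus, and the y axis -log10 of the unadjusted limma p. Of the 42 cell cycle genes (red), 40 lie right of 0, and of the 13 interstitial collagens (blue) 12 do, and Tnc has the largest positive difference, 2.01.

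The cell cycle lists had the highest medians of the gene lists with at least 5 members tested. Of 21 genes of DNA replication tested, 20 were higher post-partum and 1 was lower, beside 49.3% higher and 50.6% lower of all genes. At an unadjusted p under 0.05 there were 14 higher and 0 lower, beside 3.38% of all genes higher and 3.24% lower, and the median difference was 0.49. Of 21 genes of mitosis, 20 were higher and 1 lower, with 9 higher and 1 lower at that p and a median of 0.54. Both post-partum arrays lay above both diestrus arrays for 16 genes of each list, with 21.1% of all genes as background. Cdc6 of the first list and Cenpe of the second reached the level at which genes were tested in the post-partum group only. Without them 19 of 20 replication genes were higher, 13 at that p, and 19 of 20 mitotic genes, 9 at that p. These lists were drawn up with earlier results of these data known, and a count is a description of these arrays.

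The minichromosome maintenance genes encode the helicase that opens DNA at replication origins, and 6 of its subunits were tested. Mcm3 stood at 6.12 and 6.27 post-partum and at 5.11 and 5.56 in diestrus, a difference of 0.86 ± 0.18 (SE, unadjusted p = 0.00153). Mcm5 stood at 6.97 and 7.35 post-partum and at 6.18 and 6.45 in diestrus (0.84 ± 0.19, unadjusted p = 0.00226). For both genes each post-partum array exceeded each diestrus array. The other 4 subunits differed by 0.73 (Mcm6), 0.61 (Mcm2), 0.49 (Mcm4) and 0.38 (Mcm7). Mcm6 gave 0.44 without diestrus replicate 2 and 1.02 without diestrus replicate 3. Gins2, a subunit of the complex that activates this helicase, stood at 6.43 and 6.63 post-partum and at 5.51 and 5.96 in diestrus. Licensing factors stood higher as well: Cdc6 by 0.61 ± 0.15 and Cdt1 by 0.38 ± 0.16. So did Uhrf1, which guides maintenance methylation to newly made DNA, by 0.75, thymidine kinase Tk1 by 0.53, DNA ligase Lig1 by 0.50 and the G1/S cyclin Ccne1 by 0.49, the last of which gave 0.32 without diestrus replicate 2. Pcna, the sliding clamp, was at 9.45 and 9.47 post-partum and at 8.83 and 9.47 in diestrus (0.31, unadjusted p = 0.192), and without diestrus replicate 2 the difference was -0.0055. The dUTPase gene Dut, at 7.06 and 7.09 post-partum and 7.06 and 7.20 in diestrus, was the 1 lower member (-0.062), and it turned to 0.0091 without diestrus replicate 3.

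Among the mitotic genes, cyclin A2 and its kinase partner had differences over 1. Ccna2 stood at 7.23 and 7.23 post-partum and at 5.88 and 6.15 in diestrus, 2.32-fold higher (1.21 ± 0.19, unadjusted p = 0.000243). Cdk1, the kinase that drives entry into mitosis, stood at 7.48 and 7.87 post-partum and at 6.59 and 6.48 in diestrus (1.14 ± 0.22). Ube2c, the ubiquitin-conjugating enzyme of the anaphase-promoting complex, stood at 7.54 and 7.38 post-partum and at 6.39 and 6.16 in diestrus (1.19 ± 0.18, unadjusted p = 0.000234). In all 3 genes the gap between the groups was wider than the gap between the arrays of a group. Topoisomerase Top2a followed with 6.04 and 6.66 post-partum and 4.96 and 5.39 in diestrus (1.17 ± 0.31). Mki67, the proliferation marker Ki-67, stood at 7.38 and 7.84 post-partum and at 6.51 and 6.61 in diestrus (1.05 ± 0.32). The cytokinesis gene Anln was higher by 0.76, the spindle motor Kif11 by 0.72 and the anaphase activator Cdc20 by 0.55. Cyclin B2 (Ccnb2) was higher by 0.80, and by 0.51 without post-partum replicate 4. Cenpf, a kinetochore protein gene, was the exception, at 6.61 and 7.19 post-partum and 7.50 and 7.60 in diestrus (-0.65 ± 0.25), and it gave -0.36 without post-partum replicate 2.

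**Figure D2:**
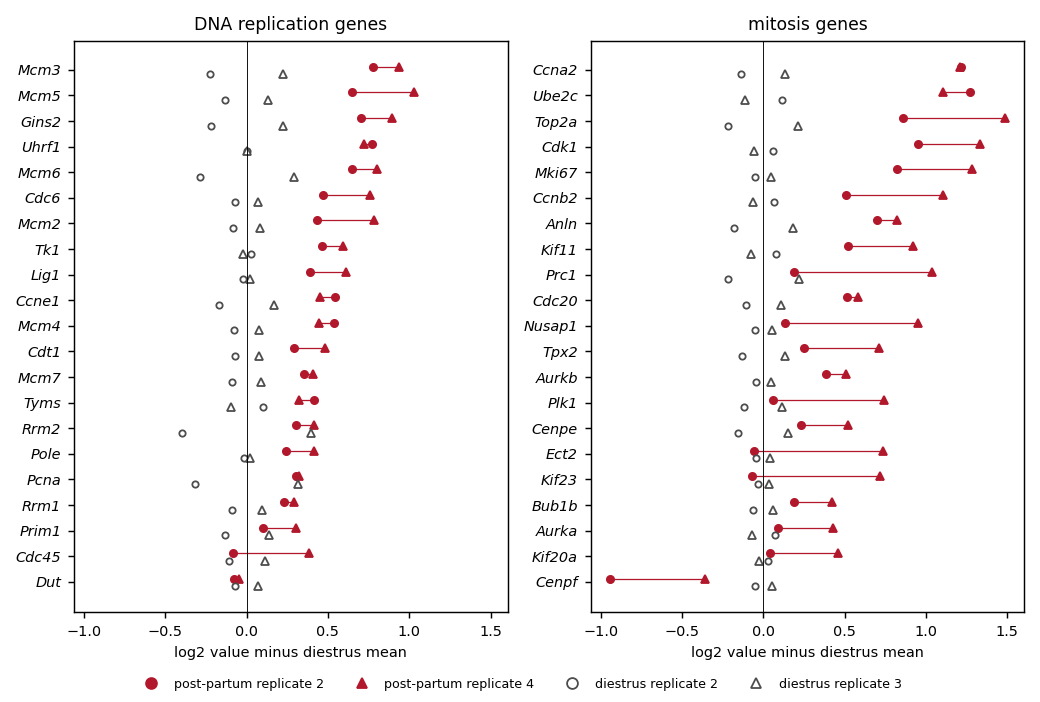
Each row is a gene, and the x axis gives the log2 value of each array minus the diestrus mean; filled red symbols are the post-partum replicates and open grey symbols the diestrus replicates. The list medians on post-partum replicates 2 and 4 are 0.42 and 0.45 in the DNA replication panel and 0.25 and 0.74 in the mitosis panel, where Cenpf lies left of 0.

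The post-partum arrays agreed more closely on replication than on mitosis. The DNA replication list had a median of 0.42 on post-partum replicate 2 and 0.45 on replicate 4, against the diestrus mean, while the mitosis list had 0.25 and 0.74. Prc1, an organiser of the central spindle, stood at 5.70 and 6.55 post-partum and 5.29 and 5.73 in diestrus, and Nusap1, a spindle protein gene, at 5.71 and 6.53 post-partum and 5.53 and 5.63 in diestrus; their differences of 0.61 and 0.54 were 0.19 and 0.13 without post-partum replicate 4. On post-partum replicate 2 Ect2 and Kif23, both of cytokinesis, lay 0.058 and 0.070 below the diestrus mean, as the differences without replicate 4 of -0.058 and -0.070 give. Leaving out each array in turn, the replication median ran from 0.42, without post-partum replicate 4, to 0.57, without diestrus replicate 3. The mitosis median ran from 0.25, without post-partum replicate 4, to 0.74, without post-partum replicate 2. The count of replication genes higher at an unadjusted p under 0.05 was smallest without diestrus replicate 2. So was the share of all genes higher at that p. Without post-partum replicate 4 the replication count was also smaller than with all arrays, while the share of all genes was larger. The mitotic count was smallest without post-partum replicate 4 and largest without post-partum replicate 2. For these fits the share of all genes moved the opposite way. It was larger than with all arrays without post-partum replicate 4, and smaller without post-partum replicate 2.

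Promoters of the leading members are shown because replication and mitotic genes are known to be controlled through different short sequences. E2F factors act at the first group around the G1/S transition, and the CHR element, often beside CCAAT boxes bound by NF-Y, at the second group in G2 and mitosis. The sequences are the 250 bases before and 50 bases after the start of the gene, from RefSeq on build GRCm38.p6, and were chosen as the 2 members with the smallest p of each list that have an entry. Capitals mark the motifs searched on both strands: TTTGGCGC, TTTCGCGC, TTTCCCGC and TTTGCCGC for E2F, TTTGAA for the CHR and CCAAT. Mcm3 lies on the minus strand at chr1:20820263-20820562, Mcm5 on the plus strand at chr8:75109259-75109558, Ube2c on the plus strand at chr2:164769679-164769978 and Cdk1 on the minus strand at chr10:69352863-69353162. Each is written 5′ to 3′ on the strand of its gene.
Mcm3: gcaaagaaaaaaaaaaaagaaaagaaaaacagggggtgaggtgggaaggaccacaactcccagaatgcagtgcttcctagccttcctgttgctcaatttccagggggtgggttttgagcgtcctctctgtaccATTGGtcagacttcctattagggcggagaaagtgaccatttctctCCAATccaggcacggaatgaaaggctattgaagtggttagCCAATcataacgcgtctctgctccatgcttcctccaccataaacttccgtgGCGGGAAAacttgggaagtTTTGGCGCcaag
Mcm5: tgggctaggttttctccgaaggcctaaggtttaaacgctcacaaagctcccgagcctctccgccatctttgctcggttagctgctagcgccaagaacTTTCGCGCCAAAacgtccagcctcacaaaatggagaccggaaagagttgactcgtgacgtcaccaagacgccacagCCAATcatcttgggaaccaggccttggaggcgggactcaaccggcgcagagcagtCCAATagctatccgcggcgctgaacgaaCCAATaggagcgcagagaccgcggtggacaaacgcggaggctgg
Ube2c: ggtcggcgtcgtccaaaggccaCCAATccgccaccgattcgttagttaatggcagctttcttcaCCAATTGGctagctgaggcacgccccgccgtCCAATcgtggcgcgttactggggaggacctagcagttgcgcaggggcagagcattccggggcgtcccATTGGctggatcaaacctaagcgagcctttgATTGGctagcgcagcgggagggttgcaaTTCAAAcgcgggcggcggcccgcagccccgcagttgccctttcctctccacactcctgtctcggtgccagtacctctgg
Cdk1: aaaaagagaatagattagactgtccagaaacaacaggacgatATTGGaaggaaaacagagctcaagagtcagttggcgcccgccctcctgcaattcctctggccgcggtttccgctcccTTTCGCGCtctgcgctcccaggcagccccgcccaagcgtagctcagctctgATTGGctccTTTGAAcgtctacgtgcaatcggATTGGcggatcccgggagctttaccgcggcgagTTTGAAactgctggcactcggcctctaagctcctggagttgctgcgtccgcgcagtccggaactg

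Both replication promoters held 2 E2F matches and no CHR match, and both mitotic promoters held a CHR match, 1 in Ube2c and 2 in Cdk1, with 6 and 3 CCAAT matches. Mcm3 and Mcm5 held 3 CCAAT matches each, and Cdk1 held 1 E2F match as well. In Mcm5 the E2F matches overlap each other on opposite strands, as a pair of CCAAT matches does in Ube2c. In the whole lists an E2F match stood in 36.4% of 22 replication promoters (18 genes) and in 5.26% of 19 mitotic promoters (17 genes), beside 3.63% of the 13763 promoters of all genes tested and 2.26% of all 32851 promoters in the table. A CHR match stood in 9.09% of the replication and 89.5% of the mitotic promoters, beside 12.0% for all genes tested and 17.9% of the table. CCAAT and CHR stood together in 84.2% of the mitotic promoters, beside 4.64% for all genes tested and 6.95% of the table. A match is a run of letters in a window of 300 bases, not a shown binding site.

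Members of 2 further families are given as values only, and apart from H1f5 they were picked after their values were seen. H1f5, and Dtl, which is of neither family, came from the ranking by size of difference. The linker histone gene H1f5 stood at 5.49 and 5.56 post-partum and at 3.69 and 3.76 in diestrus (1.80 ± 0.35, unadjusted p = 0.00105), and reached the level at which genes were tested in the post-partum group only. Core histone genes H2bc18, H2ax and H2bc3 stood higher by 0.90, 0.50 and 0.44, and H2bc18 by 0.43 without post-partum replicate 2. Other core histone genes ran the other way: H2ac21 stood at 4.99 and 6.06 post-partum and at 6.28 and 6.16 in diestrus (-0.70), and H2az2 at 8.94 and 9.86 post-partum and at 9.97 and 10.03 in diestrus (-0.60). Without post-partum replicate 2 these gave -0.16 and -0.14. Histone genes are close copies of each other, and probes can read several. Of 21 histone genes tested, 15 were higher, beside 49.3% of all genes. H1f5 is among the 15, and the filter alone placed its post-partum mean above that of diestrus. The tubulins, the subunits of microtubules, were led by Tubb6 (0.80 ± 0.17), Tubb2a (0.76 ± 0.18) and Tubb5 (0.62 ± 0.17). Tubb2a stood at 7.98 and 8.01 post-partum and at 7.26 and 7.21 in diestrus. Tubg2, a tubulin of the microtubule-organising centre, was lower by 0.62, and 12 of the 14 tubulins tested were higher, beside the same 49.3%. Dtl, which directs the ubiquitin ligase that destroys Cdt1 during S phase, stood at 5.18 and 5.33 post-partum and at 4.05 and 4.43 in diestrus (1.02 ± 0.16), and it too reached the tested level in the post-partum group only.

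The extracellular matrix held the gene with the largest positive difference of all genes tested. Tnc, the matricellular glycoprotein tenascin-C, which is scarce in the healthy adult heart, stood at 7.13 and 7.75 post-partum and at 5.56 and 5.29 in diestrus. It was 4.04-fold higher (2.01 ± 0.24, unadjusted p = 3.9e-05, adjusted p = 0.445 by limma). Timp1, an inhibitor of matrix metalloproteinases, stood at 7.93 and 8.60 post-partum and at 6.55 and 6.86 in diestrus (1.56 ± 0.26). Col8a1, a chain of the short collagen VIII, stood at 9.02 and 8.73 post-partum and at 7.44 and 7.53 in diestrus (1.39 ± 0.37). None of these groups overlap, and without each array in turn Tnc ranged from 1.70 to 2.32. Postn, the fibroblast product periostin, was at 10.32 and 10.38 post-partum, above 8.63 and 9.84 in diestrus (1.12 ± 0.56, unadjusted p = 0.0831), and gave 0.51 without diestrus replicate 2.

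Of 13 interstitial collagen genes, 12 were higher post-partum with a median of 0.32, and 5 were higher at an unadjusted p under 0.05 and 0 lower, beside 49.3% of all genes higher and 3.38% higher at that p. Col1a1, the main chain of collagen I, stood at 8.65 and 8.82 post-partum and at 8.05 and 8.27 in diestrus (0.58 ± 0.19). Col5a1, which seeds collagen fibrils, stood at 7.53 and 7.46 post-partum and at 7.0 and 7.03 in diestrus (0.48 ± 0.13), although its other, dimmer probe set gave -0.29. Col6a3 was higher by 0.54, Col3a1 by 0.41 (unadjusted p = 0.0616) and Col16a1 by 0.33. Col14a1, a fibril-associated collagen, was the 1 lower member, at 7.02 and 7.71 post-partum and 7.52 and 7.85 in diestrus, and it turned to 0.022 without post-partum replicate 2. The collagen list had a median of 0.17 on post-partum replicate 2 and 0.39 on replicate 4. Its count of 5 was smaller without post-partum replicate 4 and without diestrus replicate 2. The share of all genes higher at that p also moved with the array left out.

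Genes that mature collagen followed in part. Of 13 such genes, 10 were higher and 3 lower, with a median of 0.11, which was 0.27 without post-partum replicate 2. Loxl1, a lysyl oxidase that cross-links elastin and collagen, stood at 8.99 and 8.98 post-partum and at 8.51 and 8.38 in diestrus (0.54 ± 0.15). Serpinh1, the collagen chaperone HSP47, stood at 9.34 and 9.33 post-partum and at 8.91 and 8.92 in diestrus (0.42 ± 0.12). In both genes each post-partum array lay above each diestrus array. Pcolce, an enhancer of procollagen cleavage, was higher by 0.33. Lox itself was at 5.61 and 5.84 post-partum and 5.53 and 6.95 in diestrus, and its difference of -0.51 turned to 0.20 without diestrus replicate 3.

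Other matrix classes were mixed. Of 13 matricellular genes 7 were higher, among them Sparc, a collagen-binding glycoprotein (0.41 ± 0.15), and Tnxb, tenascin-X (0.39 ± 0.16). Of 10 proteoglycan genes 4 were higher and 6 lower. Vcan, the large proteoglycan versican, stood at 7.51 and 7.62 post-partum and at 7.02 and 6.98 in diestrus (0.57 ± 0.13), while Omd, the small proteoglycan osteomodulin, stood at 4.31 and 4.37 post-partum and at 5.42 and 5.87 in diestrus (-1.31 ± 0.31). Of 13 genes of elastic fibres and microfibrils 9 were lower, and the elastic fibre gene Fbln1, at 8.26 and 8.57 post-partum and 9.07 and 9.05 in diestrus, was lower by 0.65. Of 16 basement membrane genes 15 were higher with a median of 0.14, led by the heparan sulfate proteoglycan Hspg2 (0.46 ± 0.15) and the laminin chain Lamb1 (0.35). The exception was Lamb2, another laminin chain, with a difference of -0.36. Timp4, the inhibitor that is abundant in heart, stood at 6.81 and 8.13 post-partum and at 8.56 and 8.35 in diestrus, opposite to Timp1, with a difference of -0.98 ± 0.40 that was -0.32 without post-partum replicate 2.

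**Figure D3:**
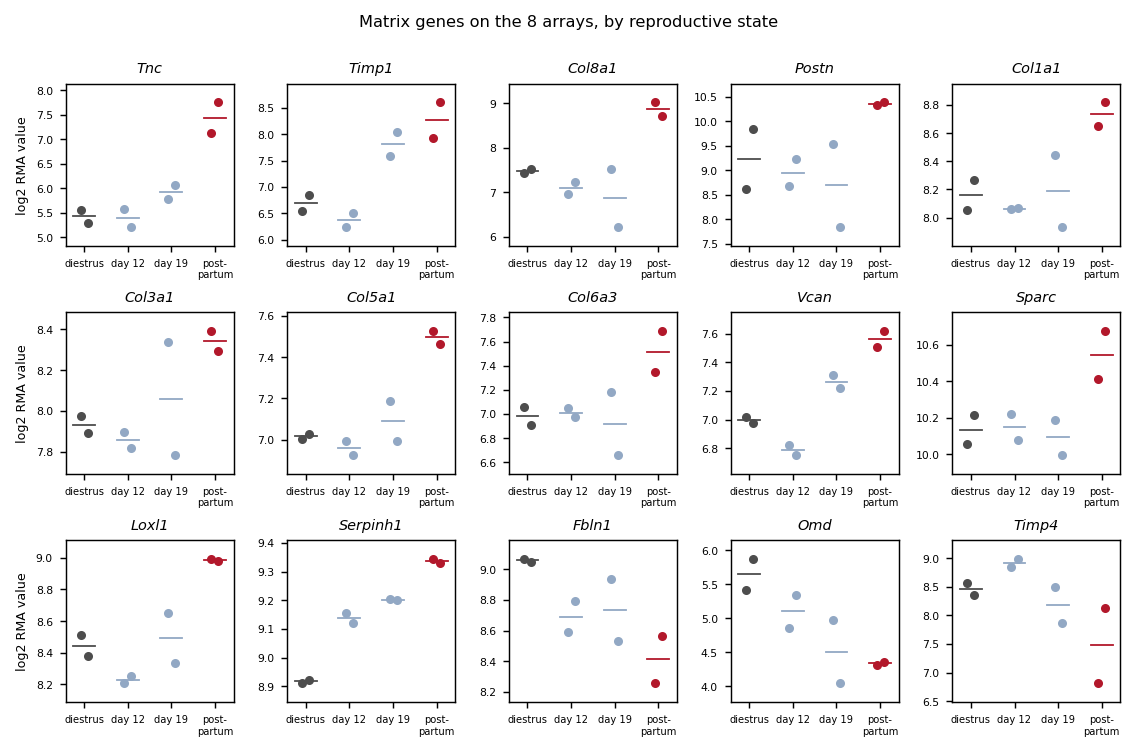
Each panel gives the log2 value of 1 matrix gene on the 8 arrays, as points in order of state, with a bar at the mean of the 2 arrays. The post-partum points of Tnc lie at 7.13 and 7.75, above the other 6 arrays, while those of Fbln1 and Omd lie below both diestrus arrays.

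Most fibroblast markers had lower values post-partum, unlike the collagens. Of 15 markers 5 were higher and 10 lower, with a median of -0.26, which was -0.29 on post-partum replicate 2 and -0.042 on replicate 4. Pdgfra, the receptor that defines cardiac fibroblasts, stood at 8.77 and 9.06 post-partum and at 9.23 and 9.27 in diestrus (-0.34 ± 0.14), and gave -0.19 without post-partum replicate 2. Thy1, a surface glycoprotein of fibroblasts and other cells, was at 7.53 and 7.69 post-partum and at 7.11 and 7.22 in diestrus (0.44 ± 0.14). In whole tissue, fewer cells of a type and less RNA per cell cannot be told apart. Of 14 cardiomyocyte markers 10 were higher with a median of 0.039, and of 15 endothelial markers 7 were higher with a median of -0.037, which turned to 0.043 without diestrus replicate 3. Macrophage markers were higher in 11 of 18 cases (median 0.053), with -0.14 on post-partum replicate 2 and 0.29 on replicate 4. None of the members of those last 3 lists reached an unadjusted p under 0.05. Of 13 mural markers, those of pericytes and smooth muscle, 4 were higher and 9 lower. Their median was -0.0034, and -0.22 without post-partum replicate 4. At an unadjusted p under 0.05 there were 1 higher and 2 lower, beside 3.38% of all genes higher and 3.24% lower. The pericyte proteoglycan gene Cspg4, with the largest positive difference of this list, stood at 7.18 and 6.96 post-partum and at 6.36 and 6.37 in diestrus (0.71 ± 0.16). The smooth muscle genes Cnn1 and Myh11 were lower by 0.82 and 0.37, with -0.44 and -0.20 without diestrus replicate 3. The part of any cell type in the cell cycle and matrix differences was not tested.

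Few inflammatory genes reached an unadjusted p under 0.05, with errors taken from all 8 arrays. Those errors include day 19 replicate 2, on which the chemokine median against the diestrus mean was 1.49, beside 0.097 on day 19 replicate 1. Ccl2, the chemokine that draws monocytes, stood at 8.76 and 8.90 post-partum and at 7.28 and 6.99 in diestrus (1.70 ± 0.64, unadjusted p = 0.0302). Ccl11, which draws eosinophils, stood at 7.13 and 7.15 post-partum and at 6.59 and 6.75 in diestrus (0.47 ± 0.16). These were 2 of 23 chemokine genes (8.7%) higher at an unadjusted p under 0.05, beside 3.38% of all genes, and the other 21 did not reach it. Of the 23, 14 were higher (60.9%), beside 49.3% of all genes. Both post-partum arrays lay above both diestrus arrays for 12 (52.2%), beside 21.1% of all genes, and below both for 2. Cd68, a lysosomal protein of macrophages, stood at 9.37 and 9.22 post-partum and at 8.22 and 8.41 in diestrus (0.98 ± 0.43, unadjusted p = 0.056). The MHC class II genes, which present antigen, mostly had lower values: H2-Aa stood at 7.81 and 8.03 post-partum and at 8.85 and 8.76 in diestrus. H2-Ab1 stood at 8.25 and 8.80 post-partum and at 9.67 and 9.44 in diestrus. Their groups do not overlap, but the differences of -0.89 ± 0.68 and -1.03 ± 0.80 had unadjusted p of 0.227 and 0.237. Those errors come from all 8 arrays, and on day 19 replicate 2 H2-Ab1 stood at 12.15 against 9.13 on replicate 1. The class II list had 4 of 6 members lower, a median of -0.68 and 0 members at an unadjusted p under 0.05.

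Of 11 load-responsive genes of hypertrophy 9 were higher (median 0.16, and 0.27 without post-partum replicate 4). Acta1, the skeletal actin that the stressed ventricle re-expresses, stood at 10.40 and 9.88 post-partum and at 8.52 and 9.03 in diestrus (1.37 ± 0.43, unadjusted p = 0.0142). Nmrk2, a kinase of NAD synthesis, stood at 6.99 and 7.40 post-partum and at 6.10 and 6.18 in diestrus (1.06 ± 0.34). In both genes the groups do not overlap. Rcan1, a calcineurin target and inhibitor, was higher by 0.73, and by 0.38 without diestrus replicate 3. The natriuretic peptide gene Nppb was at 11.60 and 11.29 post-partum and 11.35 and 10.42 in diestrus (0.56, unadjusted p = 0.0813), and gave 0.090 without diestrus replicate 3. Nppa, the other natriuretic peptide gene, was at 11.21 and 12.02 post-partum and 11.92 and 11.03 in diestrus, and its difference of 0.14 turned to -0.31 without diestrus replicate 3. The fetal myosin gene Myh7 was at 7.56 and 6.88 post-partum and 6.98 and 6.41 in diestrus (0.53 ± 0.35), and gave 0.19 without post-partum replicate 2. For these last 3 genes the arrays of the groups interleave.

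Hormone and stress response genes differed in direction from list to list. Of 16 hormone receptor genes 13 were lower, among them the estrogen receptor gene Esr1 (-0.70 ± 0.29), which gave -0.25 without diestrus replicate 3. Stat3, the transcription factor of cytokine and prolactin signalling that protects the maternal heart in mice, stood at 10.63 and 10.54 post-partum and at 9.999 and 10.11 in diestrus (0.54 ± 0.18). Cish, a STAT5 target and feedback inhibitor, was higher by 0.39, by 0.24 without post-partum replicate 2 and by 0.91 on its other probe set. Of 22 glucocorticoid target and metallothionein genes, 18 were higher with a median of 0.16, which was 0.084 without diestrus replicate 2. The metal-binding protein gene Mt2 stood at 10.06 and 10.27 post-partum and at 9.42 and 9.47 in diestrus (0.72 ± 0.13, unadjusted p = 0.000791), and Mt1 was higher by 0.46. The phosphatase gene Dusp1, a target of the same hormones, was lower by 0.55, and by 0.29 without post-partum replicate 2. Heme oxygenase Hmox1 stood at 6.49 and 6.82 post-partum and at 5.96 and 6.03 in diestrus (0.66 ± 0.19). Of 23 endoplasmic reticulum stress genes 17 were lower, including the chaperone gene Hsp90b1, at 10.39 and 10.42 post-partum and 10.80 and 10.84 in diestrus (-0.42 ± 0.14).

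In metabolism, the enzymes of branched-chain amino acid breakdown were mostly lower. Of 17 such genes 15 were lower with a median of -0.23, beside 50.6% of all genes lower. Both post-partum arrays lay below both diestrus arrays for 11, against 21.7% of all genes. Only 1 was lower at an unadjusted p under 0.05, beside 3.24% of all genes. That 1 was Acadsb, a short branched-chain acyl-CoA dehydrogenase, at 9.24 and 9.47 post-partum and 9.74 and 9.69 in diestrus (-0.36 ± 0.15). Mmut, which feeds the end product into the citric acid cycle, was at 9.20 and 9.28 post-partum and 9.72 and 9.63 in diestrus (-0.44, unadjusted p = 0.069). Of 23 genes of fatty acid uptake and oxidation 8 were higher (median -0.065). Within them Slc27a1, a fatty acid transporter, stood at 8.12 and 8.75 post-partum and at 9.29 and 9.31 in diestrus (-0.87 ± 0.21), and gave -0.55 without post-partum replicate 2. Aldh1a2, which makes retinoic acid, stood at 7.18 and 7.60 post-partum and at 5.96 and 6.45 in diestrus (1.18 ± 0.21). Of complex I of the respiratory chain, 17 of 32 genes were higher with a median of 0.025, and of complexes III to V, 19 of 35 with a median of 0.028.

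**Figure D4:**
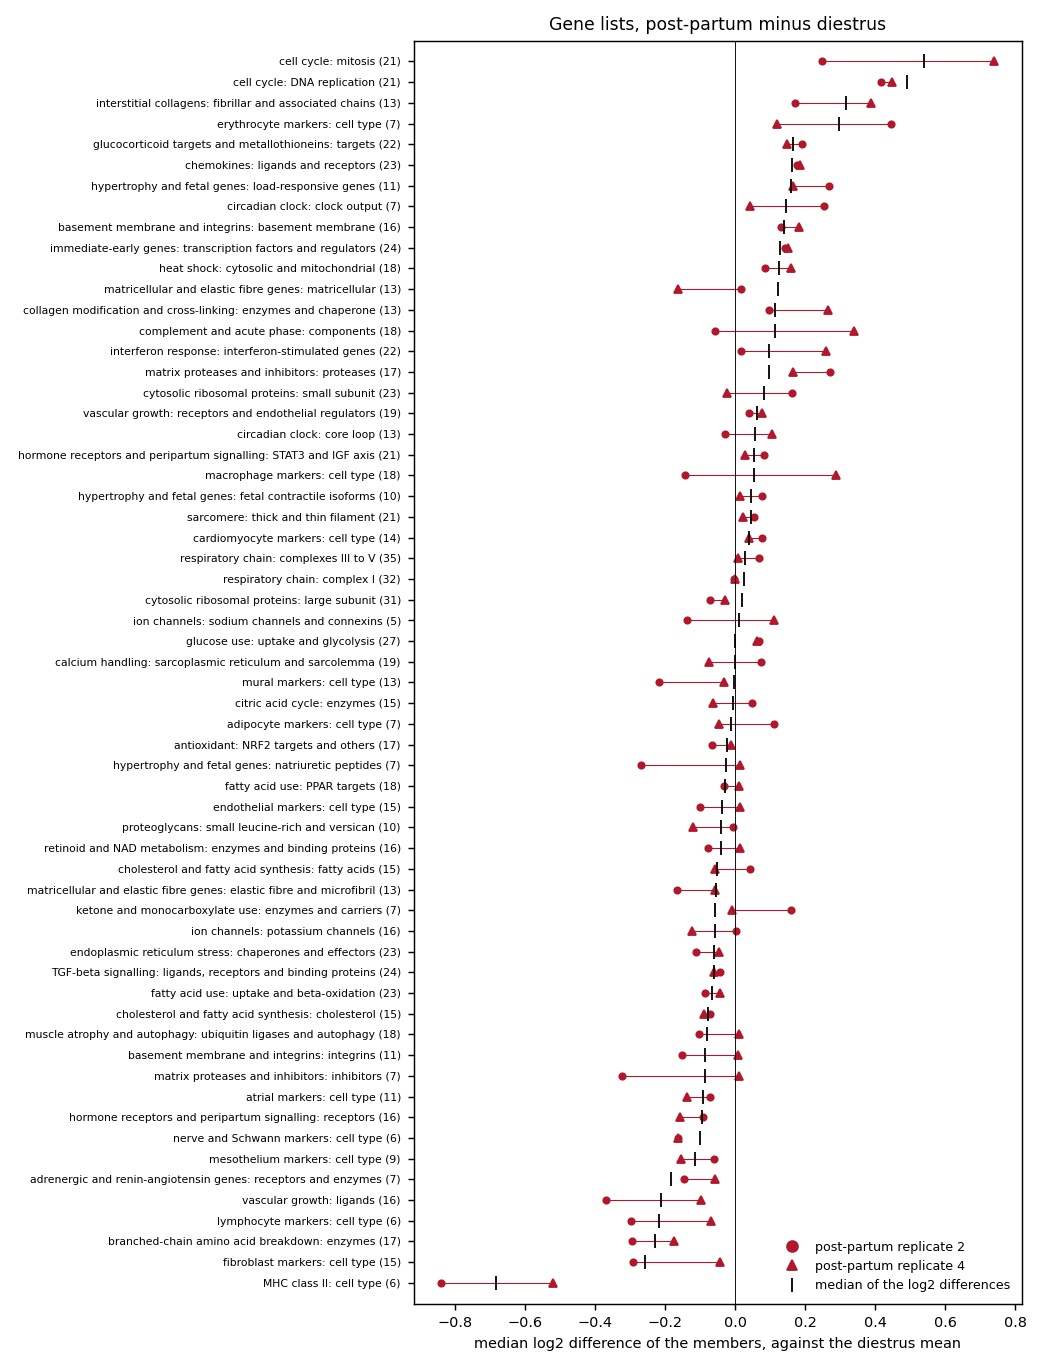
Each row is a gene list with at least 5 members tested (their number in parentheses); red symbols give the median of its members on each post-partum replicate against the diestrus mean, and the black mark the median of the log2 differences. The cell cycle lists lie furthest right at 0.54 and 0.49, and MHC class II furthest left at -0.68.

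Among genes with an unadjusted p under 0.01 and groups that do not overlap, those furthest below diestrus were of varied kinds. Ide, the insulin-degrading enzyme, stood at 9.12 and 8.97 post-partum and at 10.04 and 10.04 in diestrus (-1.0 ± 0.13, unadjusted p = 6.41e-05), the second smallest p of all genes. Penk, which encodes the opioid precursor proenkephalin, stood at 5.39 and 5.58 post-partum and at 6.73 and 6.78 in diestrus (-1.27 ± 0.25). In both genes each post-partum array lay below each diestrus array. The class Ib MHC gene H2-Q10 had the largest negative difference of the genes ranked by size with an unadjusted p under 0.01, at 4.32 and 5.65 post-partum and 6.38 and 6.39 in diestrus (-1.40 ± 0.36). It gave -2.06 without post-partum replicate 4 and -0.74 without replicate 2, its other probe set gave 0.25, and it belongs to a family of close copies. Tc2n, Prxl2a, Dhdh, Nrxn2, Klra9, Ugt3a1, Zfp760, Cetn3, Mustn1 and Pla2g2d ranged from -1.16 to -0.83. Of these, without post-partum replicate 2, Dhdh gave -0.53, Klra9 -0.56 and Mustn1 -0.58, and Nrxn2 gave -0.0096 on its other probe set. On the higher side the remaining genes were Uck2, a uridine-cytidine kinase (0.87 ± 0.15, and 0.80 on its other probe set), the porphyrin carrier gene Tmem14c (0.93) and Catsperg1 (0.84, and 0.54 without post-partum replicate 2), the last of which reached the tested level in the post-partum group only. On the lower side Tc2n, Klra9, Ugt3a1 and Omd reached it in diestrus only.

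Set directly against pregnancy, the post-partum ventricle again had no gene past the threshold: 0 of 13872 against day 19 (0%, limma, smallest adjusted p = 0.0667) and 0 against day 12 (0%, smallest adjusted p = 0.182). At an unadjusted p under 0.05, 650 genes were higher (4.69%) and 494 lower (3.56%) than at day 19, and 547 higher (3.94%) and 580 lower (4.18%) than at day 12. The post-partum values of replication genes stood above those of both stages: 10 of 21 were higher than at day 19 and 11 than at day 12 at that p. Both post-partum arrays exceeded the other 6 arrays for 14 of the 21 replication genes (66.7%), beside 6.45% of all genes. This held for 6 of 21 mitotic genes (28.6%) and for 6 of 13 interstitial collagens (46.2%). The 21 replication genes include Cdc6 and the 21 mitotic genes Cenpe, which reached the tested level in the post-partum group only. For these genes the filter alone placed the post-partum mean above those of the other states. On the array medians against the diestrus mean, replication genes lay at 0.13 and -0.020 at day 12, 0.066 and 0.12 at day 19 and 0.42 and 0.45 post-partum. Mitotic genes lay at 0.25 and -0.13 at day 12, 0.12 and 0.47 at day 19 and 0.25 and 0.74 post-partum. Day 19 replicate 2 thus lay above post-partum replicate 2, and day 12 replicate 2 was level with it.

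Among single genes, Tnc was higher post-partum than at day 19 by 1.52 (unadjusted p = 0.000268) and than at day 12 by 2.05 (unadjusted p = 3.45e-05). Col8a1 was higher than at day 19 by 2.00 and than at day 12 by 1.78, and Loxl1 by 0.49 and 0.76. The post-partum mean of these 3 genes was thus above that of both pregnancy stages, as it was above diestrus. Timp1 was already high at day 19, with 7.59 and 8.04, and its difference from that stage was 0.45 (unadjusted p = 0.12). Stat3 gave -0.019 and Uck2 -0.038 against day 19, in both cases within 1 standard error. Myh7 differed the other way: it stood at 7.56 and 6.88 post-partum and at 8.99 and 9.69 at day 19 (-2.12, unadjusted p = 0.000367). Pdk4, the kinase that restrains glucose oxidation, was lower post-partum by 0.80 than at day 19 and by 0.93 than at day 12. Its difference from diestrus was -0.030, which turned to 0.25 without post-partum replicate 2. Angptl4, an inhibitor of lipoprotein lipase, was lower by 0.80 than at day 19 and by 0.54 than at day 12, and stood 0.33 above diestrus (unadjusted p = 0.103). Ide was low on all 6 arrays of the 3 pregnancy-related states, between 8.97 and 9.35, against 10.04 and 10.04 in diestrus.

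The diestrus arrays themselves differed in genes of the circadian clock, the internal timer of daily rhythms. Arntl, which encodes the activator BMAL1, stood at 6.36 and 6.67 post-partum and at 8.39 and 5.82 in diestrus. Npas2, its partner, stood at 6.64 and 6.49 post-partum and at 8.16 and 6.20 in diestrus. The post-partum arrays thus lay between the diestrus arrays for both. The clock output gene Dbp, at 9.24 and 9.36 post-partum and 7.82 and 9.71 in diestrus, ran the opposite way, as did Ciart with 7.12 and 7.31 post-partum and 5.57 and 7.82 in diestrus and Per1 with 8.58 and 8.38 post-partum and 7.52 and 8.88 in diestrus. The differences of all 5 genes changed sign without diestrus replicate 2: Arntl gave 0.70, Npas2 0.36, Dbp -0.42, Ciart -0.60 and Per1 -0.40. Of the atrial markers, Sln, a regulator of the calcium pump, stood at 4.30 and 3.75 post-partum and at 4.51 and 6.21 in diestrus, high on the diestrus array on which Myl7 was high. Myl7 and Sln stood higher still on day 19 replicate 1 (11.76 and 10.62) and on day 12 replicate 3 (10.04 and 7.89). Without diestrus replicate 3 Myl7 gave -0.40 and Sln -0.49, in place of -1.96 and -1.34. For the atrial list, 3 of 11 were higher with a median of -0.092, which turned to 0.13 without diestrus replicate 3. The part of either pattern in other differences was not tested.

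**Figure D5:**
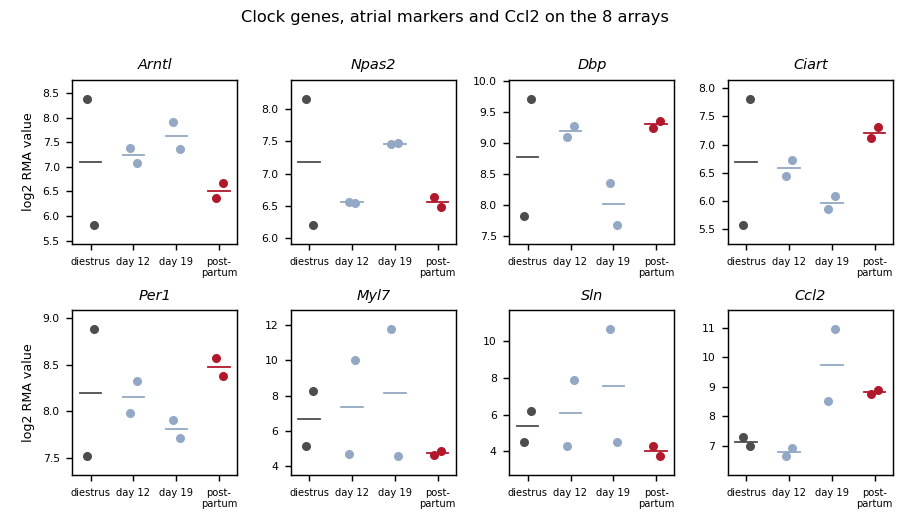
Each panel gives the log2 value of 1 gene on the 8 arrays, as points in order of state, with a bar at the mean of the 2 arrays. The post-partum points of Arntl lie at 6.36 and 6.67, between the diestrus points at 8.39 and 5.82, while the post-partum points of Ccl2, at 8.76 and 8.90, lie above both diestrus points.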

How the data were processed

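RNA of left ventricle tissue was hybridised to 8 one-colour arrays. The authors deposited RMA values on a log2 scale for each probe set, which per the submitters' processing notes came from Affymetrix Expression Console (version and build: not given in the sources used here). RMA equalises the arrays, so a change shared by most genes is removed. Of 34365 probe sets, 23521 had 1 gene symbol, 1814 several and 9030 none here. The brightest probe set stood for each gene.

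A linear model with a mean for each of the 4 states was fitted in limma 3.58.1 (R 4.3.3) to the 8 arrays, two-sided, at an adjusted threshold of 0.05, with 4 residual and 3.68 prior degrees of freedom. It was tested on simulated data. Precision is limited by the number of arrays.

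The members and the 47 gene lists were chosen with earlier results of these data known. Named genes are the 15 with the largest differences each way, filled from an unadjusted p under 0.01 with groups that do not overlap (predicted, olfactory and small RNA genes left out), the 4 of smallest p in each list, and genes fixed by name, of which Prlr and Per2 were not measured here. Other genes named, such as Mcm2, Pcna, Cenpf, Col14a1, Postn, Arntl, the histones except H1f5, the tubulins and those of single arrays, were chosen after their values were seen. Alternatives changed the arrays, weights, variance, filter, probe sets or centring.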

Additional observations from a re-analysis of the deposited data

Results flagged for a closer look

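Of 162 genes followed in the text, 22 had both post-partum arrays on one side of both diestrus arrays and both day 12 arrays on the other side, beside 5.41% of all genes. At day 19 this held for 5, beside 3.01% of all genes. Many of the genes followed were chosen for post-partum and diestrus arrays that do not overlap, so the shares are not compared. The direct contrast of post-partum with the stage is given, and none of these genes passed after adjustment over all genes (limma). The criterion itself fixed the sign of each contrast: genes above diestrus lay above the stage, and genes below diestrus lay below it.

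Against day 12, the linker histone gene H1f5 stood at 5.49 and 5.56 post-partum and at 3.62 and 2.60 at day 12, and differed by 2.42 (adjusted p = 0.308). The protease inhibitor gene Timp1 stood at 7.93 and 8.60 post-partum and at 6.24 and 6.50 at day 12, and differed by 1.89 (adjusted p = 0.285). The chemokine gene Ccl2 stood at 8.76 and 8.90 post-partum and at 6.66 and 6.92 at day 12, and differed by 2.04 (adjusted p = 0.615). Ccl11, another chemokine gene, differed by 0.72. The other matrix genes were Col8a1 (1.78), Vcan (0.78), Loxl1 (0.76), Tnxb (0.63), Col5a1 (0.54), Pcolce (0.47), the basement membrane gene Nid2 (0.46), the proteoglycan gene Podn (0.37) and, lower post-partum, the inhibitor gene Timp4 (-1.44). The histone genes H2bc18 and H2bc3 differed by 1.24 and 0.68, the tubulin gene Tubb5 by 0.90 and the licensing gene Cdt1 by 0.58. Hmox1 differed by 0.88 and Thy1 by 0.63. The metabolic genes flagged here lay below diestrus, so the criterion itself placed them below day 12, as it placed the genes above diestrus above day 12. The fatty acid transporter gene Slc27a1 differed by -1.13 (adjusted p = 0.416, limma), the thioesterase gene Acot1 by -0.87 and Auh, of leucine breakdown, by -0.45. Whole metabolic lists varied. Of 23 genes of fatty acid uptake and oxidation 2 were higher post-partum than at day 12, and of 35 genes of complexes III to V 20 were. Over all genes 6264 of 13872 were. Of the 23, 3 were lower than at day 12 at an unadjusted p under 0.05, beside 4.18% of all genes. Their array medians against the diestrus mean were 0.18 and 0.12 at day 12 and -0.087 and -0.045 post-partum.

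Against day 19, H2bc18 differed by 1.11, Tnxb by 0.71, Hspg2 by 0.55, the chaperone gene Hsp90b1 by -0.61 and Acot1 by -0.70 (adjusted p = 0.589 for each).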

How the results depend on the processing

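No paired analysis was possible because the post-partum arrays carry replicate numbers 2 and 4 and the diestrus arrays 2 and 3, which share 1 number. Of 162 genes followed, 145 kept their direction in all 16 alternative fits. No alternative called a gene higher post-partum than in diestrus, and the count lower ran from 0 to 3 with 1 array left out: without post-partum replicate 4, Creg1 (-1.92), H2-Q10 (-2.06) and Uprt (-2.01) passed, and without diestrus replicate 2, Erv3 (-4.15). Against day 19 the count of 0 became 1 with a trended and robust variance and ran from 0 to 872 with 1 array left out, 872 without day 19 replicate 1. Against day 12 it became 2 without the day 19 arrays (Ccl2 and Col8a1) and ran from 0 to 3. With the post-partum and diestrus arrays alone the smallest adjusted p against diestrus was 0.0933, and without the day 19 arrays 0.101. The share of all genes higher at an unadjusted p under 0.05 also moved between fits. It was 3.38% with all arrays, 3.99% with the post-partum and diestrus arrays alone and 5.48% without the day 19 arrays. With 1 array left out it was smallest without diestrus replicate 2. Counts of list members are therefore not compared between fits. The counts of members higher at an unadjusted p under 0.05, an alternative chosen after seeing the data, ran from 6 to 14 for replication, 5 to 15 for mitosis and 2 to 6 for collagens.

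The sign turned with the mean of all probe sets for Dut (0.15). With 1 array left out it turned for Dut (-0.13 to 0.0091), Col14a1 (-0.66 to 0.022), Myh6 (-0.041 to 0.065), Pdk4 (-0.31 to 0.25), Nppa (-0.31 to 0.58), Pcna (-0.0055 to 0.63), Ect2 (-0.058 to 0.74), Kif23 (-0.070 to 0.72), Lox (-1.22 to 0.20), Fabp4 (-0.26 to 0.0059), Dbp (-0.42 to 1.47), Arntl (-1.87 to 0.70), Ciart (-0.60 to 1.65), Npas2 (-1.60 to 0.36), Per1 (-0.40 to 0.96), Hamp (-3.19 to 0.13) and Snora30 (-0.51 to 4.05). The cause was not tested. With 2 arrays a group, a group reduced to 1 array is assumed to vary like the others.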

Other observations

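Some large differences rest on 1 array. A2m, the protease inhibitor alpha-2-macroglobulin, stood at 5.10 and 4.97 post-partum and at 5.20 and 9.22 in diestrus. Erv3, an endogenous retroviral gene, stood at 4.46 and 4.83 post-partum and at 4.90 and 8.80 in diestrus. Hamp, which encodes the iron hormone hepcidin, stood at 2.46 and 2.83 post-partum and at 2.52 and 5.84 in diestrus. All 3 were high on diestrus replicate 3, and without that array the differences were -0.16, -0.26 and 0.13. The small nucleolar RNA gene Snora30 stood at 10.67 and 6.12 post-partum and at 6.49 and 6.76 in diestrus, high on post-partum replicate 2 alone. Of 2798 probe sets above the filter that have no gene name here, 0 passed (limma, smallest adjusted p = 0.607) and 171 had an unadjusted p under 0.05.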
